A study of Mus musculus with 12 samples.

Results

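Afp, Gpc3, H19, Igf2, Dlk1, Meg3, Peg3 and Bex1 are 8 genes that are active in the fetus and mostly silent in the adult liver. They were read on 12 whole-genome expression arrays of mouse liver, as all probes whose name in the scanner files, or whose current synonym, is 1 of the 8 symbols. All 8 were found, with 20 of the array's 55681 probes, among 34607 named genes and transcripts. The 8 were selected on their levels and their spread among wild type livers in these same data, so their differences from wild type and their spread are described here without a test.

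The livers came from 4 E2f1-/- mice, 4 E2f2-/- mice and 4 wild type mice (129/Sv x C57BL/6), with 1 array per mouse. E2F1 and E2F2 are transcription factors of the cell cycle. By the protocol, every mouse, wild type included, was given diethylnitrosamine (DEN, a liver carcinogen) once into the peritoneum at 25 mg/kg on postnatal day 14. From weaning at 1 month they ate a high-fat diet, with 60% of its calories as fat, for 32 weeks. They were killed at 9 months of age after 4 hours without food. All livers are therefore carcinogen-exposed and fat-fed, and no untreated liver was analysed here. For all 4 E2f1-/- mice 1 label field reads vehicle and chow diet, against their titles, descriptions, other labels and the protocol, and nothing here settles which is right. That doubt goes with every value of the E2f1-/- livers. Neither the sex of the mice, nor whether a tumour was in the sampled piece, nor which exons were deleted is given in the sources used here.

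AFP is the albumin-like serum protein of fetal hepatocytes, and it returns in many liver tumours. GPC3 is a heparan sulfate proteoglycan of the cell surface with the same fetal and tumour pattern. H19 and Igf2 are neighbours with opposite imprints: the maternal copy gives the long non-coding RNA H19, the paternal copy the fetal growth factor IGF2, and both draw on the same enhancers. Dlk1 (a membrane protein of hepatoblasts, from the paternal copy) and Meg3 (a long non-coding RNA, from the maternal copy) are such a pair at another locus. PEG3 is a zinc finger protein made from the paternal copy, and BEX1 a small adaptor protein of an X-linked family, best known in brain. In mice the factors ZHX2 and ZBTB20 silence Afp after birth, and ZHX2 also acts on H19 and Gpc3.

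The array reads each transcript with probes of 60 bases, and the level of a gene depends on where its probe lies. The probes that carry the results are given as the files list them, 5′ to 3′, on genome build mm9, and none holds a part set in capitals. No annotation of mm9 was used here, so exon, intron or UTR is not assigned. The Afp probe (chr5:90937781-90937840, plus strand, printed on 10 spots) and the brighter of both Gpc3 probes (chrX:49625740-49625799, minus strand) read the 2 tumour markers. The H19 locus has 7 probes between chr7:149761492 and chr7:149762476, minus strand. Its brightest and its farthest one are shown because the first was well above background on 12 of 12 arrays and the second on 1. The single Igf2 probe (chr7:149839661-149839720, minus strand) is shown because the level of Igf2 rests on it alone.
Afp: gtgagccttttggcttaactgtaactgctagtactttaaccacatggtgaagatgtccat
Gpc3: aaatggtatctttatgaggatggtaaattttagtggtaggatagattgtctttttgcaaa
H19 brightest: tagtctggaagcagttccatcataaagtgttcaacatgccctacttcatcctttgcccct
H19 farthest: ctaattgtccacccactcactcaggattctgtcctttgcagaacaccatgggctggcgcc
Igf2: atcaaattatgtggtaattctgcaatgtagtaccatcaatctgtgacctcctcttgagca

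The Bex1 probes need a caution. Both probes named Bex1 (chrX:132674125-132674184 and chrX:132674650-132674709) and the probe named Bex4 (chrX:132674810-132674869) lie on the plus strand of mm9 within 1 short interval, the brighter Bex1 probe 100 bases from the Bex4 probe. RefSeq's annotation of the later build GRCm38.p6 puts Bex1 and Bex4 at separate places on opposite strands, and it also lists Bex4 as an old synonym of Bex1. The longest run of bases that any pair of the 3 probes shares is 6, so the probes read different stretches. Which of these related genes each one reads is uncertain, and Bex1 below means the probes named so.
Bex1 brighter: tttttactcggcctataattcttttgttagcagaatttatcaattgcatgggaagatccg
Bex1 dimmer: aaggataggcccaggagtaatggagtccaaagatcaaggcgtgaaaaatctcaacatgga
Bex4: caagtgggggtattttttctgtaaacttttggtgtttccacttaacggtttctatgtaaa

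Values are log2 of the scanner's background-subtracted intensity minus the 75th percentile of the same array, called relative log2 signal, so that 1 unit is a 2-fold difference and 0 is the level of a fairly bright probe. Levels of different probes are not set against each other. A gene was read through the brightest of its probes that cleared background well on 3 or 4 of the 4 arrays of some group. Afp, Gpc3, H19, Meg3, Peg3 and Bex1 passed this filter, and Igf2 and Dlk1 did not. Among 20576 genes tested with limma, at a Benjamini-Hochberg adjusted p under 0.05, 20.6% were called in E2f1-/- against wild type livers (13.2% higher, 7.43% lower) and 22% in E2f2-/- against wild type livers (14.4% higher, 7.59% lower). Of the calls against wild type, 64% in E2f1-/- and 65.5% in E2f2-/- livers were higher, and 50.4% and 49.5% with quantile scaling. Both comparisons use the same 4 wild type livers, so they are not independent. Between E2f2-/- and E2f1-/- livers 1.62% were called. The median difference over all tested genes was 0.13 in E2f1-/- and 0.18 in E2f2-/- minus wild type, against which the values below can be read.

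Per array, the 75th percentile ran from 118.9 to 236.3 intensity units, with 44.8% to 54.5% of probes well above background. The E2f1 probe gave -0.88 to -0.63 in E2f1-/- livers, -0.48 to 0.19 in E2f2-/- livers and -0.26 to 0.45 in wild type livers. The E2f2 probe gave 0.20 to 0.73 in E2f2-/- livers, -1.07 to -0.20 in E2f1-/- livers and 0.49 to 1.07 in wild type livers. Both were above background on all 12 arrays, and with the deleted part unknown neither checks the genotype labels. Hepatocyte markers, 12 of 12 of them tested, had a mean relative log2 signal of 8.59 to 9.13 in E2f1-/- livers, 8.50 to 8.79 in E2f2-/- livers and 7.72 to 8.26 in wild type livers. Of these, 6 were called higher in E2f1-/- and 5 in E2f2-/- livers, beside 13.2% and 14.4% of all tested genes. Endothelial markers (7 of 7 tested) had means of 1.21 to 1.78 in E2f1-/- livers, 1.46 to 1.74 in E2f2-/- livers and 2.09 to 2.16 in wild type livers. In E2f1-/- and E2f2-/- livers 1 and 2 of them were called lower, beside 7.43% and 7.59% of all tested genes. Of the stellate cell and fibroblast markers (9 of 10 tested), 3 were called lower in each knockout, beside 7.43% and 7.59% of all tested genes. These markers had means of 0.72 to 1.19 in E2f1-/- livers, 0.33 to 0.72 in E2f2-/- livers and 1.00 to 1.57 in wild type livers. Their part in the levels of the members was not tested. In a bulk sample, fewer cells of a type and less RNA per cell cannot be told apart. Each of the 4 slides held 1 array of every group, always at the same place for a group, so place and group cannot be told apart, while differences within a slide can be given.

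**Figure D1:**
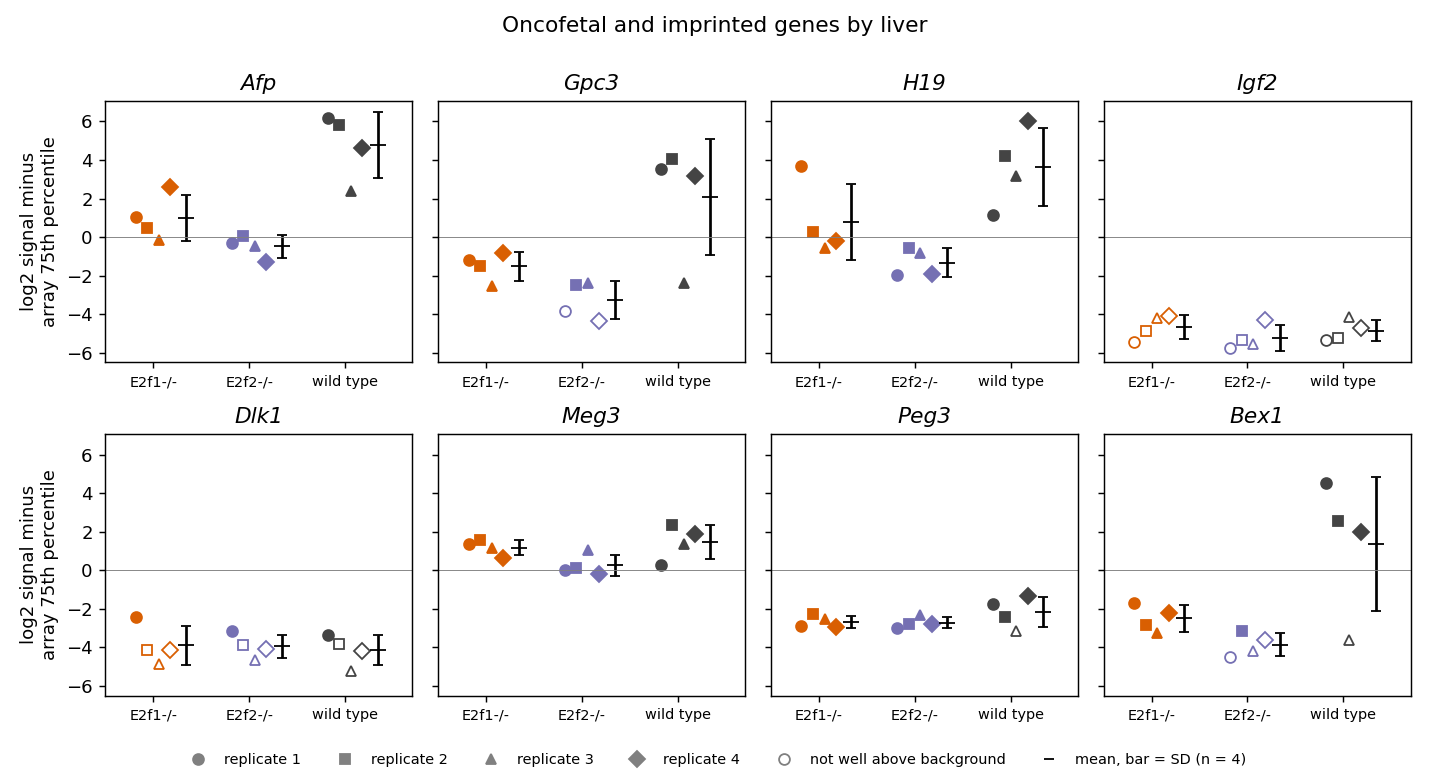
Relative log2 signal (log2 intensity minus the array's 75th percentile) of the main probe of each gene in 4 E2f1-/- (orange), 4 E2f2-/- (violet) and 4 wild type livers (grey). Marker shape gives the replicate number, which is also the slide, open markers are not well above background, and black bars show mean and SD (n = 4). Afp, Gpc3 and Bex1 were high in 3 wild type livers and lower in wild type replicate 3, while Igf2 and Dlk1 lay near background nearly everywhere.

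Afp, the fetal serum protein, was the member with the clearest levels. Its intensity was 352.8, 173.1, 161.4 and 725.7 in E2f1-/- replicates 1 to 4, 140.7, 128.2, 91.3 and 47.95 in E2f2-/- replicates 1 to 4, and 17190, 10330, 720.5 and 4207 in wild type replicates 1 to 4. As relative log2 signal this was 1.05, 0.45, -0.17 and 2.59 in E2f1-/- livers, -0.29, 0.08, -0.44 and -1.31 in E2f2-/- livers, and 6.18, 5.82, 2.39 and 4.64 in wild type livers. All 4 E2f2-/- livers were below all 4 wild type livers, whereas E2f1-/- replicate 4 lay just above wild type replicate 3. The mean was 0.98 ± 1.18 in E2f1-/- livers, -0.49 ± 0.59 in E2f2-/- livers and 4.76 ± 1.71 in wild type livers (SD, n = 4 each), a difference of -3.78 ± 1.04 for E2f1-/- and -5.25 ± 0.90 for E2f2-/- minus wild type (SE). Within the 4 slides the difference was -5.37 to -2.05 for E2f1-/- and -6.48 to -2.83 for E2f2-/-, negative on every slide. Over all tested genes, 6.79% had all E2f1-/- arrays below all wild type arrays and 7.04% all E2f2-/- arrays.

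The promoter of Afp is the best studied of the members, and the 250 bases before its RefSeq start (GRCm38.p6, chr5:90490464-90490713, plus strand) carry letters known from it. Capitals mark, from left to right, an HNF1 motif (GTTAAT), a FOXA motif (TGTTTGC) and a TATA box (TATAAA). The stretches before Gpc3 (chrX:52613975-52614224, minus strand) and Bex1 (chrX:136215514-136215763, minus strand) are set beside it because the signals of the 3 genes went together across livers, and they hold none of the motifs searched.
Afp promoter: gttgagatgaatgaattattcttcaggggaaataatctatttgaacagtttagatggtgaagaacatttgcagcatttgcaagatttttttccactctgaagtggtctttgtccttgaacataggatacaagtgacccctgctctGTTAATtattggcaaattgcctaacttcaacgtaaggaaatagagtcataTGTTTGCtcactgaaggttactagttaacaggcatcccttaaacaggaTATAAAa
Gpc3 promoter: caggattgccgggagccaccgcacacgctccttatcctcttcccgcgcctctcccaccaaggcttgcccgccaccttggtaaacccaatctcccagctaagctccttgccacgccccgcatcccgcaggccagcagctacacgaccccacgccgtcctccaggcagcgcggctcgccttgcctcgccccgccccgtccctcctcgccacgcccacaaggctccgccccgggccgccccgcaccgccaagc
Bex1 promoter: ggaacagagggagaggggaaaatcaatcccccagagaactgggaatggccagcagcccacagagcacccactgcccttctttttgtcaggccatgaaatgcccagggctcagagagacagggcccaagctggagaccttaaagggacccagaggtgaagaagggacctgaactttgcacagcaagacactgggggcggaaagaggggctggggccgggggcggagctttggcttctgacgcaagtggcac

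The search covered both strands of 300 bases around each start, 250 of them upstream, for 7 of the 8 members with a RefSeq promoter. The HNF1 letters GTTAAT is in 7.1% of 32851 such windows, the FOXA letters TGTTTAC or TGTTTGC in 8.48%, TATAAA in 13.6%, and the E2F letters TTTCGCGC or TTTGGCGC in 0.813%. Among the members, Dlk1 also held the FOXA letters at 2 places and Meg3 also held TATAAA, where its reverse complement overlaps. No window of a member held the E2F letters, the C/EBP letters TTGCGCAA, TTGCGTAA or TTGCACAA (1.36% of windows), or the DR1 repeat read by COUP-TF and HNF4 (0.0396%). A match is a stretch of letters and not a shown binding site, and a missing match says nothing of the factor.

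Gpc3, the cell-surface proteoglycan, was like Afp lowest among wild type livers in replicate 3, while the order of the other wild type and of the E2f2-/- livers differed in part. It gave -1.17, -1.52, -2.55 and -0.83 in E2f1-/- replicates 1 to 4, -3.83, -2.49, -2.37 and -4.35 in E2f2-/- replicates 1 to 4, and 3.52, 4.07, -2.39 and 3.18 in wild type replicates 1 to 4. In intensity, the 3 high wild type livers reached 2702, 3074 and 1530 units and wild type replicate 3 only 26.1 units. That liver lay inside the range of both knockouts, so neither knockout group was separate from wild type. Group means were -1.52 ± 0.75 in E2f1-/- livers, -3.26 ± 0.98 in E2f2-/- livers and 2.09 ± 3.01 in wild type livers (SD, n = 4 each). The differences were -3.61 ± 1.55 for E2f1-/- and -5.35 ± 1.59 for E2f2-/- minus wild type (SE), and without wild type replicate 3 they became -5.11 and -6.85, and with normexp background correction -3.01 and -3.48. Replicates 1 and 4 of the E2f2-/- livers were not well above background. The second Gpc3 probe (chrX:49740892-49740951) was above background on 0 of 12 arrays and so holds no measure of the gene.

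Bex1 had the widest range of all 8. Its probe gave -1.67, -2.85, -3.22 and -2.22 in E2f1-/- replicates 1 to 4, -4.51, -3.16, -4.16 and -3.63 in E2f2-/- replicates 1 to 4, and 4.54, 2.57, -3.60 and 2.00 in wild type replicates 1 to 4. Wild type livers thus ran from 11.36 intensity units in replicate 3, which was not well above background, to 5494 units in replicate 1. Of the E2f2-/- livers, 1 of 4 was well above background. The difference from wild type was -3.87 ± 1.78 for E2f1-/- and -5.24 ± 1.77 for E2f2-/- livers (SE), with groups that overlapped through wild type replicate 3. Without that liver the differences became -5.53 and -6.90, and with normexp background correction they were -3.03 and -3.32. The second probe named Bex1 correlated with the first at r = 0.976 over the 12 arrays, which share their libraries. In E2f2-/- livers that probe was not well above background on any array. Each E2f2-/- array was given a floor, the dimmest signal well above background, or the probe's own where higher. Some probes brighter than that dimmest signal were still not well above background, so the floor is no detection limit. The wild type mean was 22.2-fold above that floor. It includes wild type replicate 3 at its measured 12.61 units, itself not well above background, so 22.2-fold is no strict lower limit.

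H19, the maternally expressed non-coding RNA, followed another order of livers. It gave 3.67, 0.29, -0.59 and -0.22 in E2f1-/- replicates 1 to 4, -1.98, -0.57, -0.84 and -1.93 in E2f2-/- replicates 1 to 4, and 1.16, 4.22, 3.16 and 6.03 in wild type replicates 1 to 4. E2f2-/- livers were all below wild type livers, while E2f1-/- replicate 1 was higher than 2 of the 4 wild type livers. Means were 0.79 ± 1.96 in E2f1-/- livers, -1.33 ± 0.73 in E2f2-/- livers and 3.64 ± 2.04 in wild type livers (SD, n = 4 each). The difference from wild type was -2.85 ± 1.41 for E2f1-/- and -4.97 ± 1.08 for E2f2-/- livers (SE), and on the 4 slides it ran from -6.26 to 2.52 for E2f1-/- and from -7.97 to -3.14 for E2f2-/-. Without E2f1-/- replicate 1 the E2f1-/- difference was -3.82 and the SD of that group fell to 0.44.

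The same E2f1-/- replicate 1 was set apart by its adipocyte markers. The mean over the 3 tested ones, of 6 in the list, was 3.68 there, -1.59 to -0.02 in the other E2f1-/- livers, -2.94 to -1.02 in E2f2-/- livers and 0.04 to 1.48 in wild type livers. Its mitosis genes were also the highest of its group, at -1.16 against -2.64 to -2.18 in the other E2f1-/- livers. The part of either in the H19 value was not tested.

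The other H19 probes were alike in which wild type and E2f1-/- livers were highest. Of 7 probes, 6 passed the filter, 2 of them only through the wild type livers, where H19 was high. All 6 were highest in replicate 4 and lowest in replicate 1 among wild type livers, and all 6 highest in replicate 1 among E2f1-/- livers. The order of the E2f2-/- livers, which were dim, changed between probes. For E2f1-/- minus wild type livers the 6 gave -2.85 to -1.80, with 2 of them well above background in 1 of the 4 E2f1-/- livers. In E2f2-/- livers 3 of them were not well above background on any array, with the wild type mean 33.4-fold, 5.80-fold and 6.35-fold above the floor. None of these folds is a strict lower limit, and for the 5.80-fold probe wild type replicate 1 was also not well above background. The farthest probe (chr7:149762417-149762476) was well above background on 1 of 12 arrays, and a gene read through it would have looked silent.

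**Figure D2:**
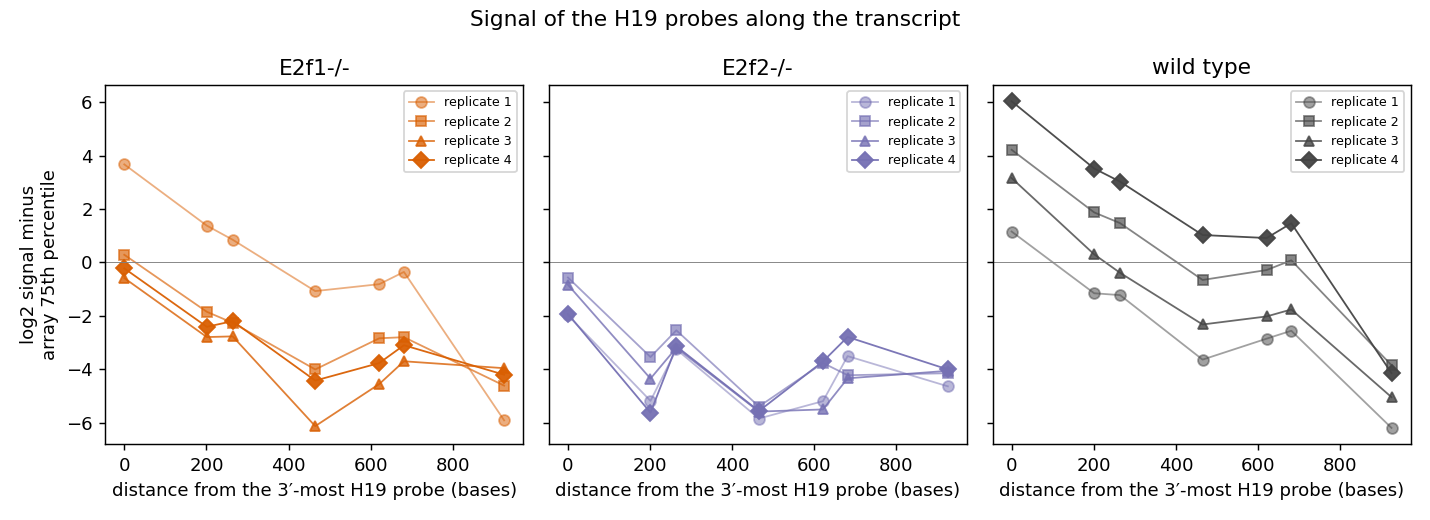
Relative log2 signal of the 7 H19 probes against distance in bases from the 3′-most probe, with 1 line per liver, for E2f1-/- (left), E2f2-/- (middle) and wild type livers (right). Wild type replicate 4 and E2f1-/- replicate 1 are on top of their groups over all but the last probe, while the lines of the E2f2-/- livers cross. Heights of different probes are not comparable.

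Igf2, the partner of H19 that shares its enhancers, did not show. Its probe was well above background on 0 of 12 arrays, at 2.6 to 9.78 intensity units, so the livers with most H19 gave no Igf2 signal on this probe and no fold can be given. Igf2r, the clearance receptor of IGF2 and imprinted itself, was well measured at 1.73 ± 0.12 in E2f1-/- livers, 1.84 ± 0.08 in E2f2-/- livers and 1.86 ± 0.34 in wild type livers (SD, n = 4 each). It passed the test in neither comparison (differences of -0.13 and -0.02, limma adjusted p = 0.65 and 0.95). Ins2, the insulin gene next to Igf2, lay at -1.44 to -0.84 in E2f1-/- livers, -1.14 to -0.15 in E2f2-/- livers and -1.85 to -0.77 in wild type livers, groups that overlapped.

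Meg3 and Dlk1, the other imprinted pair, parted in a like way, with the non-coding RNA measured and the protein gene near background. Meg3 gave 1.38, 1.57, 1.17 and 0.63 in E2f1-/- replicates 1 to 4, 0.03, 0.14, 1.04 and -0.18 in E2f2-/- replicates 1 to 4, and 0.27, 2.35, 1.38 and 1.90 in wild type replicates 1 to 4. The groups overlapped, as wild type replicate 1 lay within the range of the E2f2-/- livers, and the difference from wild type was -0.29 ± 0.49 for E2f1-/- and -1.22 ± 0.52 for E2f2-/- livers (SE). A second Meg3 probe (chr12:110782745-110782804) gave -0.31 for E2f1-/- livers, and in E2f2-/- livers it was well above background on 1 of 4 arrays. Dlk1 was well above background only in replicate 1 of each group, at -2.43 in the E2f1-/-, -3.17 in the E2f2-/- and -3.38 in the wild type liver. All 3 of these arrays sat on 1 slide. Mirg, a transcript of the same cluster as Meg3, differed by -0.26 in E2f1-/- and 0.22 in E2f2-/- livers from wild type and passed the test in neither (limma adjusted p = 0.78 and 0.80). Rtl1, a paternally expressed gene of the cluster, was above background on 0 of 12 arrays.

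Peg3 was dim throughout. It gave -2.88, -2.27, -2.54 and -2.94 in E2f1-/- replicates 1 to 4, -2.97, -2.76, -2.32 and -2.79 in E2f2-/- replicates 1 to 4, and -1.76, -2.43, -3.14 and -1.32 in wild type replicates 1 to 4. Wild type replicates 1 and 4 were higher than every knockout liver, and wild type replicate 3, not well above background, was the lowest of all 12. The difference was -0.50 ± 0.43 for E2f1-/- and -0.55 ± 0.42 for E2f2-/- minus wild type (SE), smaller than the spread among wild type livers. A second Peg3 probe (chr7:6661407-6661466) was well above background on 1 of 12 arrays, that of wild type replicate 4. Its knockout values all lay below its wild type values, with differences of -0.89 and -1.37, but so near background they give no measure of the gene.

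Over the 8 members the median difference was -1.68 in E2f1-/- and -3.09 in E2f2-/- livers, beside 0.13 and 0.18 over all tested genes. The means of 6 members in E2f1-/- and of 7 in E2f2-/- livers were lower than in wild type. These counts follow from how the members were chosen.

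The spread among wild type livers was the reason these genes were set side by side. The median SD over the 8 members was 0.72 in E2f1-/- livers, 0.61 in E2f2-/- livers and 1.30 in wild type livers, beside 0.28, 0.26 and 0.33 over all tested genes. The SD was larger in wild type than in E2f1-/- livers for 6 members and larger than in E2f2-/- livers for 7. It was at least 2 times as large for Gpc3, Meg3, Peg3 and Bex1 against E2f1-/- livers, a margin that 20.6% of all tested genes passed, and for Afp, Gpc3, H19, Peg3 and Bex1 against E2f2-/- livers, which 24.4% passed. For H19 the SD was 1.96 in E2f1-/- livers, 0.73 in E2f2-/- livers and 2.04 in wild type livers, so it varied as much among E2f1-/- as among wild type livers. An SD over 1 unit was found for Afp, H19 and Dlk1 in E2f1-/- livers (2.29% of all tested genes), for no member in E2f2-/- livers (2.21%), and for Afp, Gpc3, H19 and Bex1 in wild type livers (4.96%). An SD over 2 units in wild type livers, as Gpc3, H19 and Bex1 had, occurred in 0.321% of all tested genes.

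Most of that spread for Gpc3 came from 1 liver. Without wild type replicate 3, the wild type SD (n = 3) was 0.45 for Gpc3, 0.81 for Afp and 1.33 for Bex1, against 3.01, 1.71 and 3.49 with it, and the median over the 8 members was 0.68. For Gpc3 that is below the SD of 0.75 in E2f1-/- and 0.98 in E2f2-/- livers. For H19 leaving out the same liver raised the SD to 2.47. Replicate 3 was more than 1 unit below every other wild type liver for Afp, Gpc3 and Bex1, which was so for 3.09% of all tested genes, while 1.63% were more than 1 unit above.

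**Figure D3:**
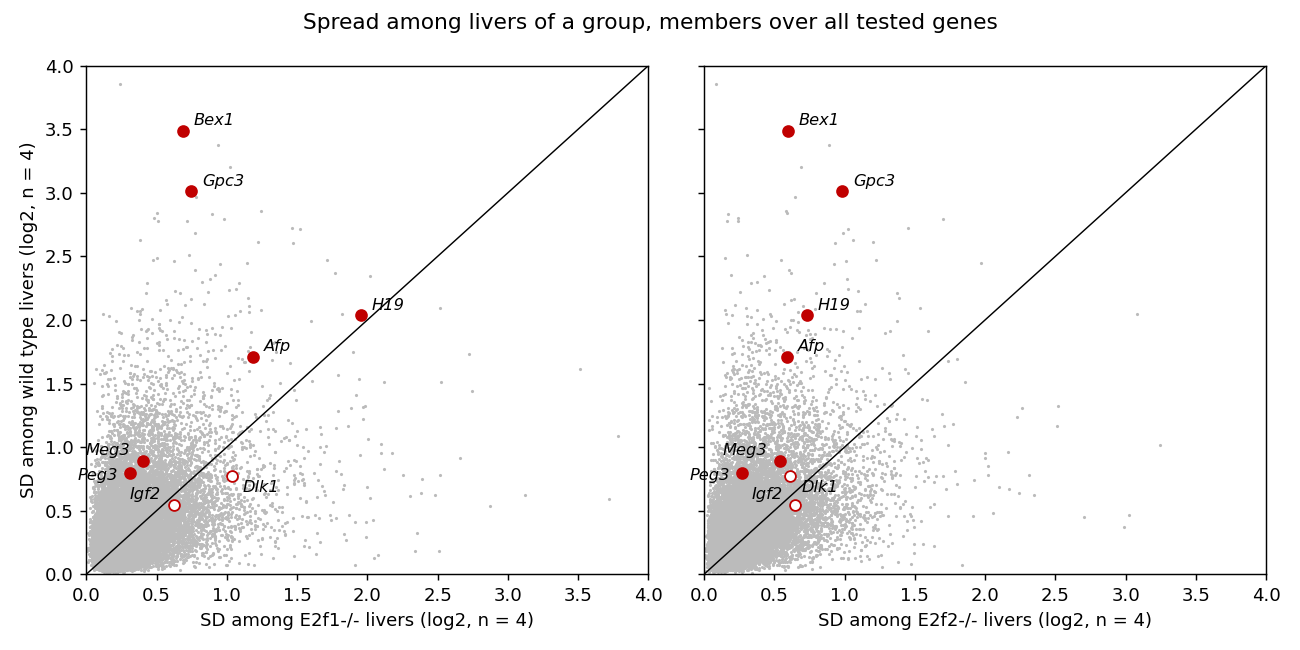
SD of the relative log2 signal among 4 wild type livers against the SD among 4 E2f1-/- (left) and 4 E2f2-/- livers (right), for all tested genes (grey) and the 8 members (red, open where the gene failed the filter on dim probes). The line marks equal SDs. Bex1 and Gpc3 stand at wild type SDs of 3.49 and 3.01, and H19 lies on the line against E2f1-/- livers.

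The members fell into sets by their order over the 12 livers, given here as Pearson's r without a test, since all genes share the same 12 libraries. Afp, Gpc3 and Bex1 went together, with r = 0.948 between Afp and Gpc3, 0.923 between Afp and Bex1 and 0.957 between Gpc3 and Bex1. H19 went with Meg3 (r = 0.783) and somewhat less with Gpc3 (0.726), Afp (0.71) and Bex1 (0.628), so the sets are not sharply parted. These r span all 3 groups, so the gap to wild type, on which the members were chosen, enters them. Peg3 correlated at 0.704 with Gpc3 and 0.703 with Bex1, and at 0.329 with Meg3.

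The genes most like each member, 3 by rule, were ranked by the same r, except for Igf2 and Dlk1, which were mostly at background. Tspan8, a membrane tetraspanin, was closest both to Afp (r = 0.982) and to Gpc3 (0.986), followed by Akr1c18 (0.975), a steroid-reducing aldo-keto reductase, and Cyp39a1 (0.968), an oxysterol hydroxylase of bile acid synthesis, for Afp. For Gpc3 the next were Kif5c, a kinesin heavy chain (0.972), and Rhebl1, a small GTPase (0.964). Nearest to Bex1 were Drc1, a ciliary protein (0.973), Elapor1 (0.973) and Bicc1, an RNA-binding protein (0.972). H19 was nearest to a transcript listed by a sequence accession alone (0.916), to Mns1 (0.904) and to Timp1, an inhibitor of matrix proteases (0.894). Meg3 was nearest to an unnamed transcript (0.861), Gpx7 (0.851) and Zdhhc22 (0.843), and Peg3 to Det1 (0.915), Pdlim1 (0.902) and Sult2a1, a sulfotransferase (0.902). The mean profile of the tested members was best matched by Gldn (0.981), Kif5c (0.956), Erich4 (0.955), Tspan8 (0.949) and Apoc2, a lipoprotein component (0.948).

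Tspan8 itself gave -1.15, -1.91, -2.52 and -0.32 in E2f1-/- replicates 1 to 4, -3.42, -1.96, -2.27 and -3.91 in E2f2-/- replicates 1 to 4, and 4.06, 4.42, -0.90 and 3.01 in wild type replicates 1 to 4. It thus showed the drop in wild type replicate 3 as well.

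**Figure D4:**
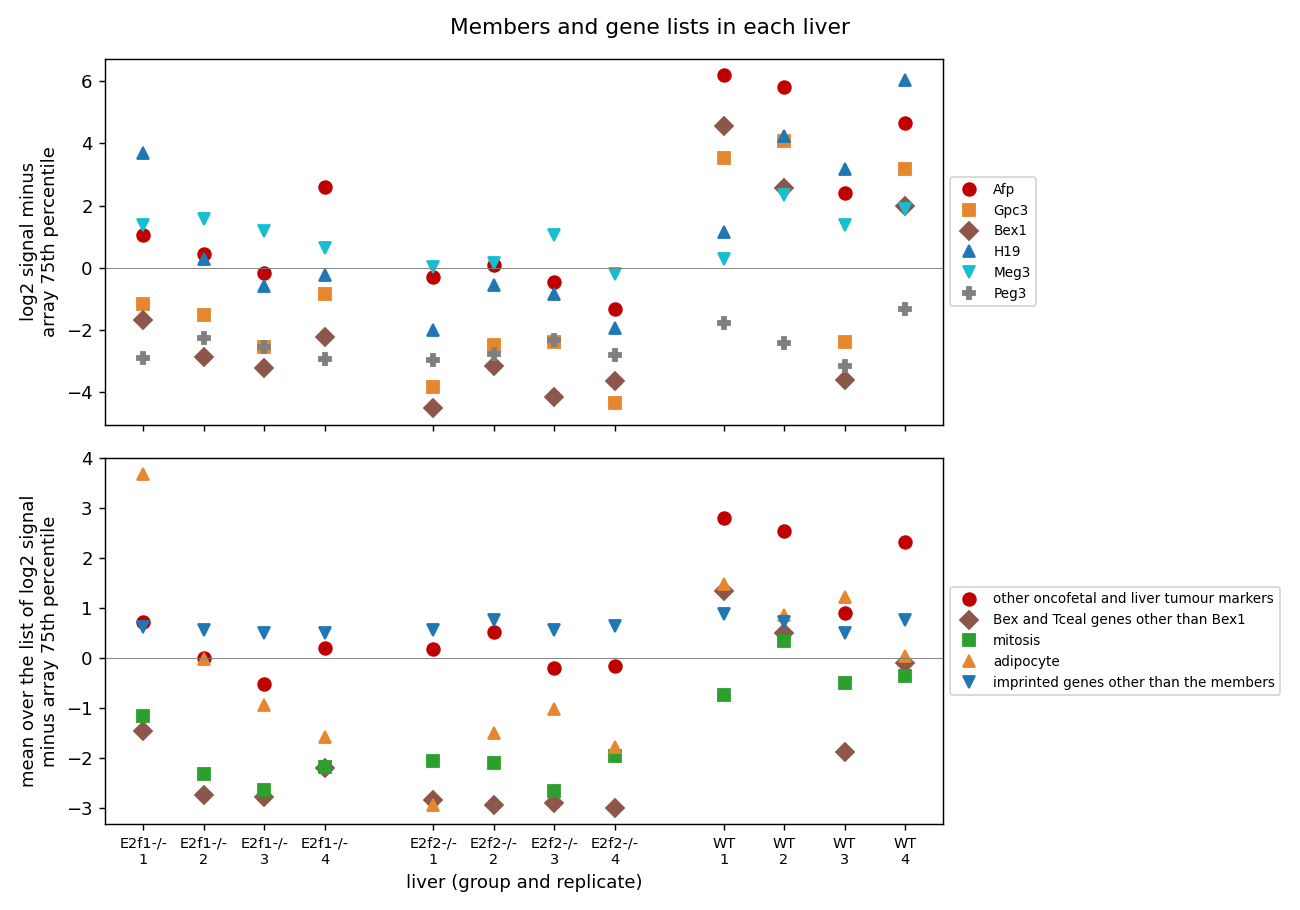
Upper panel, relative log2 signal of 6 members in each liver (E2f1-/-, E2f2-/-, then wild type, replicates 1 to 4). Lower panel, the mean relative log2 signal over gene lists in the same livers. In wild type replicate 3, Afp, Gpc3, Bex1, the other oncofetal genes and the Bex and Tceal genes were low while the mitosis genes, at -0.51, were within the range of the other wild type livers. Adipocyte markers were highest in E2f1-/- replicate 1.

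Other genes tied to liver tumours and the fetal liver were often lower in the knockouts, beside the 7.43% and 7.59% of all tested genes that were called lower. This list, like the other lists below, was chosen with earlier results of these data known. Its counts therefore describe these livers and are no independent support. Of 27 tested genes in this list, 16 fell and 1 rose in E2f1-/- livers, and 14 fell and 1 rose in E2f2-/- livers, with median differences of -2.21 and -2.04. Akr1c18 averaged -0.02 ± 0.68 in E2f1-/- livers, -1.08 ± 0.69 in E2f2-/- livers and 4.98 ± 1.59 in wild type livers (SD, n = 4 each), so that it fell by 4.99 ± 0.66 in E2f1-/- livers (SE, limma adjusted p = 0.00106) and fell by 6.06 ± 0.66 in E2f2-/- livers (adjusted p = 0.000213). Ly6d, a GPI-anchored surface protein, fell by 4.93 and 5.44 (adjusted p = 0.00241 and 0.00112). Tspan8 fell by 4.12 and 5.54 (adjusted p = 0.0132 and 0.00334). Spink1, a trypsin inhibitor, fell by 4.43 and 4.20 (adjusted p = 0.016 and 0.0188), a call lost in 1 of 21 alternatives for E2f1-/- and 3 of 21 for E2f2-/- livers, all of which left out 1 liver.

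The other named genes of this list passed in 1 of the comparisons with wild type. Cpe, a carboxypeptidase of prohormone processing, fell by 4.94 in E2f2-/- livers (adjusted p = 0.00794), with -3.00 in E2f1-/- livers (adjusted p = 0.0656). Igdcc4 fell by 4.44 in E2f1-/- livers (adjusted p = 0.049, called in 9 of 20 alternatives), with -3.77 in E2f2-/- livers (adjusted p = 0.0831). It was well above background in 1 of 4 E2f1-/-, 2 of 4 E2f2-/- and 4 of 4 wild type livers, so these sizes are not well measured. Tff3, a secreted trefoil peptide, was the 1 gene of the list that differed between the knockouts. It gave 3.85, 4.63, 3.44 and 3.89 in E2f2-/- livers and 1.83, 1.25, 0.66 and 1.80 in E2f1-/- livers, a difference of 2.57 (adjusted p = 0.0214) that lost its call in 5 of 21 alternatives. Wild type livers averaged 5.09 ± 1.18 (SD, n = 4), and Tff3 fell by 3.70 in E2f1-/- livers (adjusted p = 0.00118), with -1.14 in E2f2-/- livers (adjusted p = 0.125).

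Wild type replicate 3 was low in this list too. Its mean was 0.90, against 2.33 to 2.80 in the other wild type livers, -0.51 to 0.71 in E2f1-/- livers and -0.20 to 0.52 in E2f2-/- livers. It was the lowest wild type liver for 17 of the 27 genes (63%), and for 32.5% of all tested genes. For the mitosis genes it was the lowest for 4 of 13, with a list mean of -0.51 between -0.75 and 0.34 in the other wild type livers. The array of this liver correlated with the other wild type arrays at r = 0.954 to 0.973 across genes, which are not independent replicates, beside 0.954 to 0.983 for all pairs of wild type arrays.

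Bex and Tceal genes, neighbours of Bex1 on the X chromosome that encode small related proteins, were mostly lower in both knockouts. Of 7 tested genes 6 fell in E2f1-/- and the same number in E2f2-/- livers, beside 7.43% and 7.59% of all tested genes. The medians were -2.01 and -2.41. Tceal5 gave -1.12, -3.38, -3.24 and -1.89 in E2f1-/- livers, -4.38, -3.69, -3.69 and -4.07 in E2f2-/- livers, and 3.93, 2.25, -1.41 and 2.67 in wild type livers. It fell by 4.27 in E2f1-/- livers (adjusted p = 0.00791). In E2f2-/- livers, where no array was well above background, the wild type mean was 51.3-fold above the floor (adjusted p = 0.00175). This is no strict lower limit either. Bex2 was likewise not well above background in any E2f2-/- liver, with the wild type mean 15-fold above the floor (adjusted p = 0.01). It was well above background in 3 of 4 wild type livers, so 15-fold is no strict lower limit. In E2f1-/- livers, of which 2 of 4 were well above background, Bex2 fell by 3.53 (adjusted p = 0.0407, called in 8 of 20 alternatives).

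Bex3 fell by 2.01 and 2.33 (adjusted p = 0.0131 and 0.0065), Tceal8 by 1.37 and 2.50 (0.00736 and 0.000264) and Tceal9 by 1.37 and 1.16 (0.0169 and 0.033) in E2f1-/- and E2f2-/- livers, the Tceal9 calls being kept in 20 and 14 of 21 alternatives. Bex4 fell by 2.58 and 2.41 (adjusted p = 0.029 and 0.0368), a call kept in 14 and 11 of 20 alternatives. It was well above background in 3 of 4 E2f1-/-, 2 of 4 E2f2-/- and 3 of 4 wild type livers. Its probe is the one next to Bex1, with r = 0.931 between them over the 12 arrays. The seventh gene, Tceal1, gave -0.69 and -1.14 (adjusted p = 0.377 and 0.127). All 7 were lowest among wild type livers in replicate 3.

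Imprinted genes beyond the members showed no common direction. Of 31 tested, from 46 on the array, 5 rose and 5 fell in E2f1-/- livers, and 4 rose and 5 fell in E2f2-/- livers, with medians of -0.13 and 0.02. Over all tested genes 13.2% were called higher and 7.43% lower in E2f1-/- livers, and 14.4% and 7.59% in E2f2-/- livers. The share of imprinted genes that fell was thus above that of all tested genes, and the share that rose was near it. Plagl1, a zinc finger factor that in mice acts on a network of imprinted genes with H19 and Igf2 in it, gave -0.88, -1.19, -0.82 and -1.0 in E2f1-/- livers, -1.68, -1.27, -1.35 and -1.06 in E2f2-/- livers, and 0.28, 0.05, 0.39 and 0.55 in wild type livers. No knockout liver reached the lowest wild type liver, and Plagl1 fell by 1.29 ± 0.17 and 1.66 ± 0.17 (SE, limma adjusted p = 0.000932 and 0.000114), in all 21 alternatives. It was not lower in wild type replicate 3, unlike Afp.

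Mest, a hydrolase made from the paternal copy, fell by 1.53 and 1.27 (adjusted p = 0.00286 and 0.006), and Airn, the antisense RNA that silences Igf2r on the paternal copy, fell by 1.71 and 1.98 (0.00167 and 0.000523). Slc38a4, an imprinted amino acid transporter of hepatocytes, rose by 1.62 and 1.49 (adjusted p = 0.000616 and 0.000639). Ascl2 fell by 2.22 and 2.85 (adjusted p = 0.0418 and 0.0139), with 9 and 19 of 20 alternatives keeping the call. It was well above background in 1 of 4 E2f1-/-, 1 of 4 E2f2-/- and 3 of 4 wild type livers, so these sizes are not well measured. Ppp1r9a, an imprinted actin-binding protein, rose in E2f2-/- livers. It gave 2.63, 2.74, 2.84 and 2.61 in E2f2-/- livers, 0.40, 0.15, 0.89 and -0.24 in E2f1-/- livers and -0.58, 0.06, 0.36 and -0.31 in wild type livers, and the difference between the knockouts was 2.40 (adjusted p = 0.000203).

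**Figure D5:**
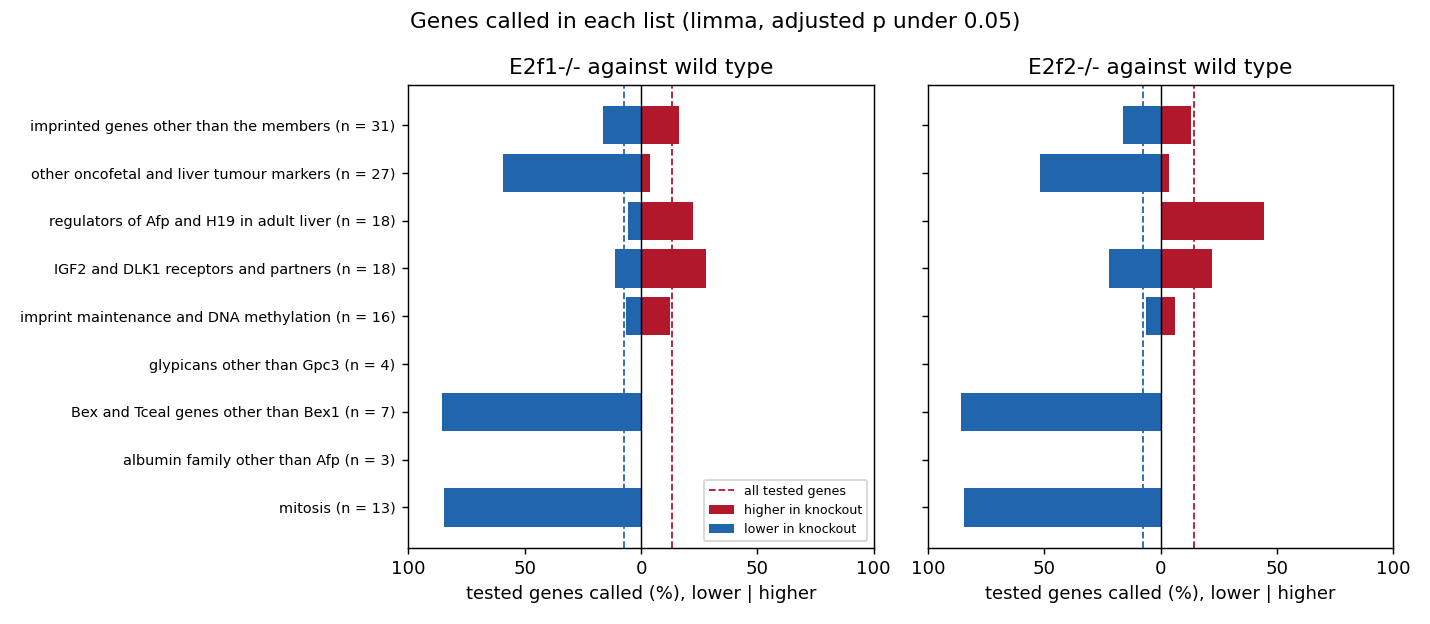
Share of the tested genes of each list that were called higher (red, to the right) or lower (blue, to the left) at an adjusted p under 0.05, in E2f1-/- (left panel) and E2f2-/- livers (right panel) against wild type livers. Dashed lines give the same share over all 20576 tested genes. The lists of oncofetal, Bex and Tceal and mitosis genes reach far past the line on the lower side. Those of imprinted genes and of IGF2 and DLK1 partners also pass it, by less.

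Of 18 tested factors that act on the Afp and H19 genes in the adult liver, 4 rose and 1 fell in E2f1-/- livers, beside 13.2% higher and 7.43% lower over all tested genes. In E2f2-/- livers 8 rose and 0 fell, beside 14.4% higher and 7.59% lower. Zhx2 was not well above background on any of the 12 arrays, so its level is not known here. Zbtb20, the other repressor, gave 4.11, 4.85, 3.90 and 3.97 in E2f1-/- livers, 4.09, 4.53, 4.78 and 4.70 in E2f2-/- livers, and 3.75, 3.57, 4.13 and 3.29 in wild type livers. It rose by 0.84 in E2f2-/- livers (adjusted p = 0.0315), a call kept in 11 of 21 alternatives, with 0.52 in E2f1-/- livers (adjusted p = 0.161).

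Hnf4a, a master factor of hepatocytes, rose by 0.68 and 0.78 (adjusted p = 0.00768 and 0.00387) and Cebpb by 1.25 and 1.17 (0.00572 and 0.0071), in all 21 alternatives. Nfia rose by 0.82 in E2f2-/- livers (adjusted p = 0.0102), with -0.03 in E2f1-/- livers. Foxa3 and Nr2f2 rose by 0.85 and 0.78 in E2f2-/- livers (adjusted p = 0.0442 and 0.0323), with 6 and 12 of 21 alternatives keeping the call.

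Receptors and partners of IGF2 and DLK1, a list that also holds the related ligand gene Igf1 and the Notch target Hes1, moved both ways. Of 18 tested, 5 rose and 2 fell in E2f1-/- livers, beside 13.2% higher and 7.43% lower over all tested genes. In E2f2-/- livers 4 rose and 4 fell, beside 14.4% higher and 7.59% lower. Igfbp2, an IGF-binding protein of fetal and fasted liver, rose by 2.44 and 1.75 (adjusted p = 0.0013 and 0.00504), Igf1 by 1.06 and 1.24 (0.0128 and 0.00602) and Igfals, the stabiliser of the IGF complex in blood, by 1.53 and 1.53 (0.00803 and 0.00764). Igfbp3 fell by 1.44 and 2.14 (adjusted p = 0.0176 and 0.00287). Igfbp1 fell by 2.78 in E2f2-/- livers (adjusted p = 0.0215, called in 18 of 21 alternatives), with -1.99 in E2f1-/- livers (adjusted p = 0.0802). Hes1, a Notch target, fell by 1.25 and 1.11 (adjusted p = 0.0276 and 0.0423), with 13 and 8 of 21 alternatives keeping the calls.

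Of 16 genes that keep imprints or DNA methylation, 2 rose and 1 fell in E2f1-/- livers, and 1 rose and 1 fell in E2f2-/- livers, shares near those of all tested genes (13.2% and 14.4% higher, 7.43% and 7.59% lower). Uhrf1, which guides the maintenance methyltransferase and is made in dividing cells, fell by 1.39 and 1.72 (adjusted p = 0.00605 and 0.00212). Zfp445, an imprint-protecting zinc finger protein, rose by 0.85 and 1.40 (adjusted p = 0.0135 and 0.00114). Tet1 rose by 1.11 in E2f1-/- livers (adjusted p = 0.017, called in 19 of 21 alternatives), with 0.71 in E2f2-/- livers (adjusted p = 0.0905).

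The closest relatives of Afp and Gpc3 did not pass the test. Of the 3 other albumin family genes none was called in either comparison. Alb, the adult counterpart of Afp, was at 11.39 ± 0.16 in E2f1-/- livers, 10.94 ± 0.36 in E2f2-/- livers and 11.30 ± 0.31 in wild type livers (SD, n = 4 each; adjusted p = 0.81 and 0.232). Of the 4 other glypicans tested none was called, and Gpc4 differed by -0.44 and -0.20 (adjusted p = 0.35 and 0.674).

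Genes of mitosis also fell. Of 13 mitosis genes 11 fell in E2f1-/- and 11 in E2f2-/- livers, beside 7.43% and 7.59% of all tested genes. The list means were -2.64 to -1.16 in E2f1-/- livers, -2.66 to -1.97 in E2f2-/- livers and -0.75 to 0.34 in wild type livers. Mki67 fell by 2.34 and 2.94 (adjusted p = 0.0112 and 0.00383), Ccna2 by 2.27 and 2.14 (0.00215 and 0.00242), and Plk1 by 2.22 and 1.36 (0.00161 and 0.0127). Prc1, well above background in 3 of 4 E2f1-/- and 2 of 4 E2f2-/- livers, fell by 2.56 and 2.95 (0.00469 and 0.00221). Top2a was well above background in no knockout liver and in 3 of 4 wild type livers. The wild type mean was 2.31-fold above the floor of E2f1-/- (adjusted p = 0.000943) and 2.56-fold above that of E2f2-/- livers (0.000172), no strict lower limits. Both Top2a calls were kept in 19 of 20 alternatives and lost with normexp background correction. Nusap1, well above background in 2 of 4 E2f1-/- livers, fell by 2.08 there (adjusted p = 0.0169). Its wild type mean was 3.62-fold above the floor of E2f2-/- livers (adjusted p = 0.00321), no strict lower limit. Its calls were kept in 18 and 19 of 20 alternatives, both lost with normexp and the first also without wild type replicate 2. The part of the mitosis genes in the levels of the members was not tested.

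Between the knockouts, a difference of means that the choice of members did not use, none of the 6 tested members passed. E2f2-/- minus E2f1-/- livers gave -1.47 ± 0.77 for Afp (SE, limma adjusted p = 0.522), -1.74 ± 1.15 for Gpc3 (0.657) and -2.12 ± 1.03 for H19 (0.476). The remaining values were -1.37 ± 1.27 for Bex1 (0.798), -0.93 ± 0.41 for Meg3 (0.406) and -0.06 ± 0.33 for Peg3 (0.982). All 6 differences were below 0, and for each the ranges of the 4 E2f2-/- and the 4 E2f1-/- livers overlapped. Peg3 turned to 0.07 without E2f1-/- replicate 2 and to 0.03 without E2f2-/- replicate 1. With normexp background correction Gpc3 gave -0.48 and Bex1 -0.29. The standard errors pool the spread of all 3 groups, and so hold the wild type spread on which the members were chosen. For Bex1 the SD was 0.69 in E2f1-/-, 0.60 in E2f2-/- and 3.49 in wild type livers. Without wild type replicate 3 the limma adjusted p was 0.118 for Gpc3, 0.263 for Afp and 0.281 for Bex1, still no call. The standard errors of Afp, Gpc3, H19 and Bex1 leave room for differences of several fold, so the lack of a call does not show that the knockouts are alike.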

How the data were processed

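Total RNA of 12 livers, 50 ng each, was labelled with 1 dye and hybridised to 60-base oligonucleotide arrays, per the labels' protocols. The authors deposited 1 scanner file per array, with intensity values that are background-subtracted but not scaled between arrays; the submitters' processing notes name Feature Extraction 10.7.3.1. The authors also deposited a value table on the log2 scale, whose columns correlated with the scanner values at r of at least 0.998 and which served as an alternative. Positions are on mm9 per the file headers.

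Control and outlier spots were left out, log2 intensity was set against each array's 75th percentile, and spots of a probe were averaged. Probes were named by accession (28026), symbol (3418) or synonym (295) through RefSeq, and otherwise as in the file (23942). A probe was tested if well above background on 3 of 4 arrays of a group, with the brightest such probe per gene. A limma 3.58.1 model (R 4.3.3) of the 3 groups over all 12 arrays, tested on simulated data, gave moderated tests with Benjamini-Hochberg adjustment over 20576 genes. Errors of members against wild type come from the 2 groups' own SDs. Where nothing says that samples are separate litters, p-values measure the spread between these mice. The members and gene lists were chosen with earlier results of these data known. By rule, each list names up to 6 called genes with the largest differences, plus neighbours of the members. 2 names of the imprinted list (48 entries, 46 found) were not found on the array. Further singled-out genes were chosen after their values were seen. Promoter sequences are RefSeq's on GRCm38.p6. Precision is limited by having 4 arrays per group. Alternatives were normexp background correction, quantile and median scaling, the deposited log2 values, other filters on dim probes, other probe rules, the slide as a block, and leaving out each liver.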

Additional observations from a re-analysis of the deposited data

Results flagged for a closer look

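Gpc3 in wild type replicate 3 stood far from the other wild type livers. Its relative log2 signal was -2.39, while the other 3 gave 3.52, 4.07 and 3.18, and its gap to the nearest was 0.863 of the whole range, above Dixon's critical value for 4 samples. Over 7 members in 3 groups, 21 sets of 4 livers were looked at, and about 1 in 20 would pass that limit by chance. Gpc3 was selected on its spread among these same wild type livers, so this value is a description and not a test. In the same liver Afp (2.39), Bex1 (-3.60) and Peg3 (-3.14) were also the lowest of their group, without passing the limit.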

How the results depend on the processing

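The counts of called genes moved with the processing, and those of the members' comparison groups with single livers. For E2f1-/- minus wild type, 4241 genes were called, 2785 without a filter on dim probes, and 2566 (without wild type replicate 2) to 4886 when 1 liver was left out, with 2646 without E2f1-/- replicate 3. For E2f2-/- minus wild type, 4524 were called, 2989 with median centring, 2994 without the filter, and 2756 (without wild type replicate 2) to 5277 with 1 liver left out. For E2f2-/- minus E2f1-/-, 334 were called, 202 with normexp, 208 with probes above background on all 12 arrays, and 238 to 371 with 1 liver left out. The cause was not tested. The share called higher against wild type was 64% and 65.5%, 50.4% and 49.5% with quantile scaling, 50% and 48.6% with median centring, and 50.2% and 49.5% in the deposited table. Gpc3 in E2f2-/- minus wild type was -5.35, and -2.68 where its second probe, at background throughout, was averaged in. Of 20 alternatives, 6 or 7 left the differences of Afp, Gpc3, H19 and Bex1 from wild type as they were, and in the other 13 or 14 they stayed below 0. Meg3 in E2f1-/- livers turned to 0.0013 without wild type replicate 2, and the signs of Igf2 and Dlk1, near background, turned too. With the replicate number, which is the slide, as a block, 5468, 6229 and 432 genes were called. Same-numbered livers of 2 groups deviated together by r = 0.0413 to 0.424, over 0.1 in 10 of 12 pairs. The model behind the report has no such block. The block turned no tested member between the knockouts.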
